A study of Homo sapiens with 6 samples.

Results

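The transcripts of glycolysis and of the hypoxia response were followed in cultures of the established human myeloma line JJN3. The 32 genes were taken from a list of 18 glycolytic enzymes and their isoforms and 14 other genes known to be induced by low oxygen or to govern that response. Of these, 31 had a probe set annotated to exactly 1 gene, matched by Entrez identifier. No probe set is named for CA9 in the annotation used, so CA9 has no expression value here. The brightest probe set of each gene stood for it, and 27 of the 32 genes (16 enzymes and 11 others) were above the filter on low values, among 12663 of 19777 genes on the array. The cells had been transduced with a virus carrying either an shRNA against CKS1B (3 arrays) or a scrambled shRNA with no specific target (3 arrays). Total RNA was hybridised to Affymetrix U133Plus2.0 arrays. The titles mark the arrays of each group A, B and C, with consecutive numbers for the arrays that share a letter. The title of scrambled array B carries the additional word poly, which is not explained. Both groups are the same cell line, the labels name 1 CKS1B shRNA without its sequence, and they do not give the oxygen tension, the medium or the time after transduction. Nothing in them ties an array to its own culture, so the p-values measure the spread between arrays, which may be technical, and the 3 arrays a group limit the precision. Values are MAS5 intensities on a linear scale. Differences are CKS1B shRNA minus scrambled shRNA in log2(value + 16), which understates the change of dim genes.

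Glycolysis splits glucose to pyruvate in the cytosol, and lactate dehydrogenase turns pyruvate into lactate. Cells short of oxygen stabilise the transcription factor subunit HIF1A, which pairs with ARNT, binds the core sequence ACGTG or GCGTG, and induces glucose transporters, several glycolytic isoforms, PDK1, VEGFA and others. HIF1A itself is controlled mainly by prolyl hydroxylation and degradation of the protein, which an array of transcripts does not measure. Myeloma cells grow in the poorly oxygenated marrow and are known to use glycolysis heavily.

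Array B of the CKS1B shRNA differed widely from the remaining 5, so each result is given with and without it. Its Pearson correlation with the others over all probe sets was 0.577 to 0.610, against 0.879 to 0.958 among the remaining 5, where probe sets are not independent replicates. The 3' to 5' ratio of the actin control, which grows when RNA is degraded or labelled near its 3' end, was 12.4 here, 1.11 and 2.93 on its group's other 2 arrays, and 1.05 to 1.66 with the scrambled shRNA. For the control of GAPDH, a glycolytic enzyme, the ratio was 4.70 there and 0.981 to 1.18 on each of the remaining 5. Of these 5, scrambled array C had the narrowest spread of log2 values (SD 1.83, against 2.20 to 2.24). It also had the highest median value (201.6, against 117.5 to 136.3). The targeted gene CKS1B read 481, 269 and 828 with the CKS1B shRNA (arrays A, B, C), against 8266, 8441 and 7294 on the scrambled arrays, which do not overlap. Its log2 difference was -4.02 (SE 0.44, adjusted p = 0.246 in limma) with 6 arrays and -3.63 (SE 0.26, adjusted p = 0.00126) without array B. All 8 plasma cell markers were above the filter, with a summed value of 35141 to 58974 on the CKS1B shRNA arrays and 40267 to 47273 on the scrambled arrays. JCHAIN, the brightest, read 17620, 19880 and 37717 with the CKS1B shRNA (arrays A, B, C), above its 13131 to 16370 on the scrambled arrays. MZB1 read 1178, 442.5 and 2080, below its 2403 to 3429 on the scrambled arrays. In the other plasma cell markers the groups overlapped with 6 arrays, where 11.3% of all genes were apart in either direction. None of 3 monocyte markers was above the filter (sums of 163 to 654 with the CKS1B shRNA and 172 to 288 with the scrambled shRNA). The 4 epithelial markers, of which 3 were above it, summed to 1737 to 1948 on the CKS1B shRNA arrays and 2635 to 3044 on the scrambled arrays. Of the 3, only EPCAM had groups apart (log2 difference -1.14 with 6 arrays), while KRT8 and KRT18 were at -0.002 and 0.02. Of all genes, 6.41% were apart in the direction of EPCAM. The part of these markers in the results below was not tested. The summed ranges overlapped for the 6 stromal markers (1384 to 2198 with the CKS1B shRNA and 1758 to 2542 with the scrambled shRNA), the 4 T cell markers (434 to 4181 with the CKS1B shRNA, highest on array B, and 313 to 1193 with the scrambled shRNA), and the 2 erythroid markers named on the array (289 to 799 with the CKS1B shRNA and 328 to 680 with the scrambled shRNA). In cultures measured in bulk, fewer cells expressing a gene and less RNA per cell cannot be told apart.

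No adjusted p of the 27 genes in limma was at or below 0.05, either with 6 arrays (lowest adjusted p = 0.933) or without CKS1B shRNA array B (lowest 0.454). Over all 12663 genes the share that passed was 0% with 6 arrays and 0.0395% (5 genes) without array B. At an unadjusted p under 0.05 there were 2 of the 27 genes with 6 arrays, HK1 and ANKRD37, where 2.95% of all genes reached that level. Without array B there were 5 of 27, HK1, ALDOA, PKM, PDK1 and ANKRD37, against 9.49% of all genes. The account that follows is therefore one of values, in which no gene is called as changed. The groups did not overlap in 7 of the 27 genes with 6 arrays, against 11.3% of all genes. HK1, ALDOA, TPI1 and LDHB had their lowest CKS1B shRNA value above their highest scrambled value (4.94% of all genes were apart this way). HK2, P4HA1 and ANKRD37 had their highest CKS1B shRNA value below their lowest scrambled value (6.41% of all genes).

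**Figure D1:**
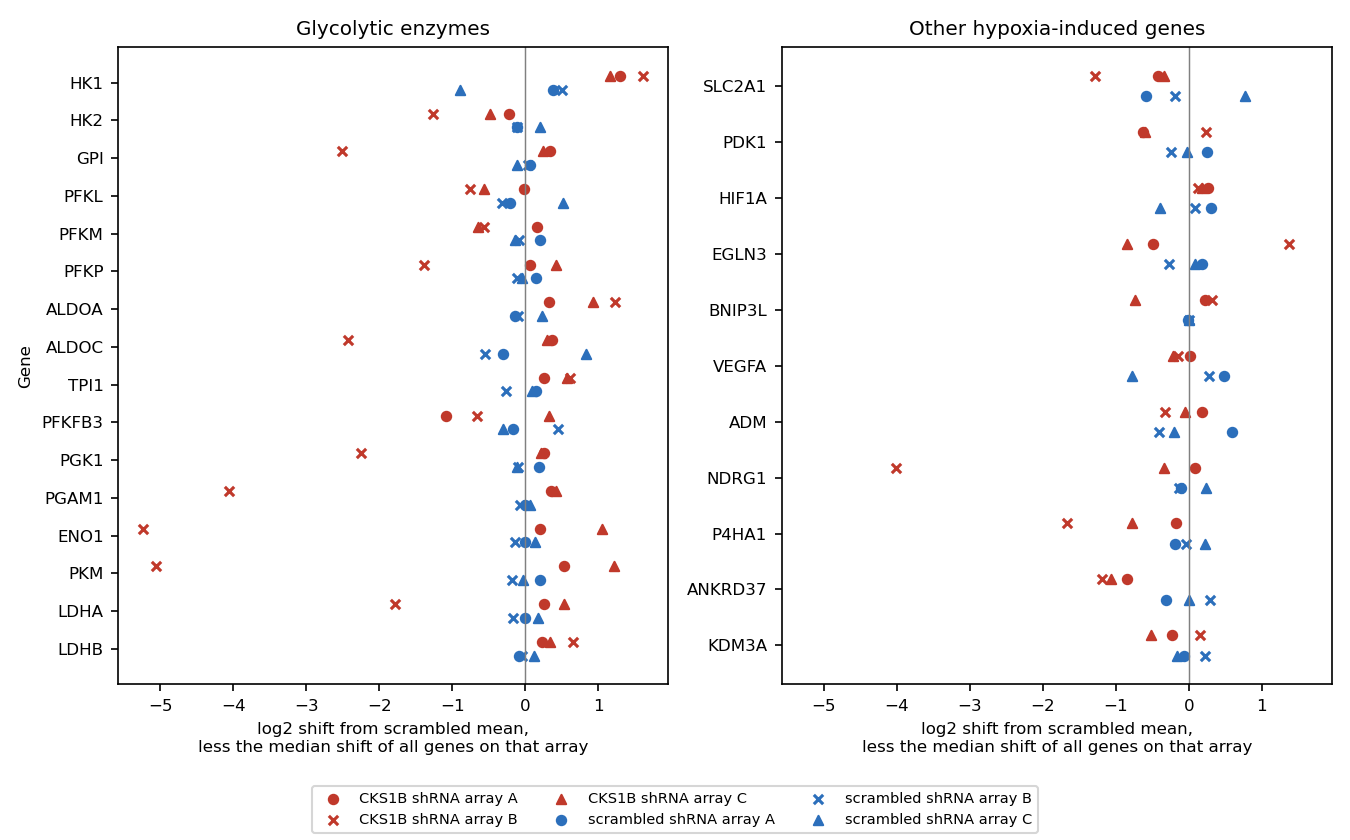
Each row is a gene, each point 1 array, and the horizontal axis is the log2 shift from the mean of the scrambled arrays (for a scrambled array, of the other scrambled arrays), less the median shift of all genes on that array. CKS1B shRNA array B (red crosses) lies far to the left for ENO1, PKM, PGAM1 and NDRG1, while the other 2 CKS1B shRNA arrays lie close to or right of the scrambled arrays for most enzymes.

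HK1 and HK2, hexokinases that trap glucose in the cell as glucose 6-phosphate, stood on opposite sides. HK1, the isoform found in most tissues, read 951.5, 1244 and 886 with the CKS1B shRNA (arrays A, B, C), against 464, 499 and 255 with the scrambled shRNA. Every CKS1B shRNA array was above every scrambled array, and the log2 difference was 1.35 (SE 0.36, 2.54-fold, adjusted p = 0.933), or 1.20 (SE 0.34, adjusted p = 0.460) without array B. HK2, the isoform induced by HIF1A and raised in many tumours, read 1111, 550 and 937 with the CKS1B shRNA, against 1259, 1273 and 1485 on the scrambled arrays. Every CKS1B shRNA array was below every scrambled array, the lowest being array B. The log2 difference was -0.67 (SE 0.35, 1.59-fold lower, adjusted p = 0.933), or -0.38 (SE 0.24, adjusted p = 0.609) without array B. HK1 has a single probe set here. A second, dimmer HK2 probe set above the filter also averaged lower, with log2 differences of -0.28 with 6 arrays and -0.39 without array B. Another, below the filter, had 0.67 with 6 arrays and -0.07 without array B, and with all probe sets averaged HK2 was at -0.0951.

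Outside glycolysis, ANKRD37 and P4HA1 showed the same separation as HK2. ANKRD37, an ankyrin repeat protein known as a direct HIF1A target, read 503, 410 and 439 with the CKS1B shRNA (arrays A, B, C), against 812, 1096 and 957 on the scrambled arrays. All CKS1B shRNA arrays read close together and well below the scrambled arrays. Its log2 difference was -1.05 (SE 0.29, 2.07-fold lower, adjusted p = 0.933), and -0.99 (SE 0.27, adjusted p = 0.454) without array B. A second ANKRD37 probe set, below the filter at 5.5 to 62.7, had overlapping groups. It was at -0.01 with 6 arrays and -0.54 without array B. P4HA1, the catalytic subunit of the prolyl hydroxylase that matures collagen, read 1614, 585 and 1075.5 with the CKS1B shRNA, against 1700, 1850 and 2105 on the scrambled arrays. Array A came near the lowest scrambled array and array B was lowest. The log2 difference was -0.89 (SE 0.42, 1.85-fold lower, adjusted p = 0.933), and -0.51 (SE 0.25, adjusted p = 0.545) without array B. With both of its probe sets averaged, the second of which was below the filter, P4HA1 was at -0.44 with 6 arrays.

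**Figure D2:**
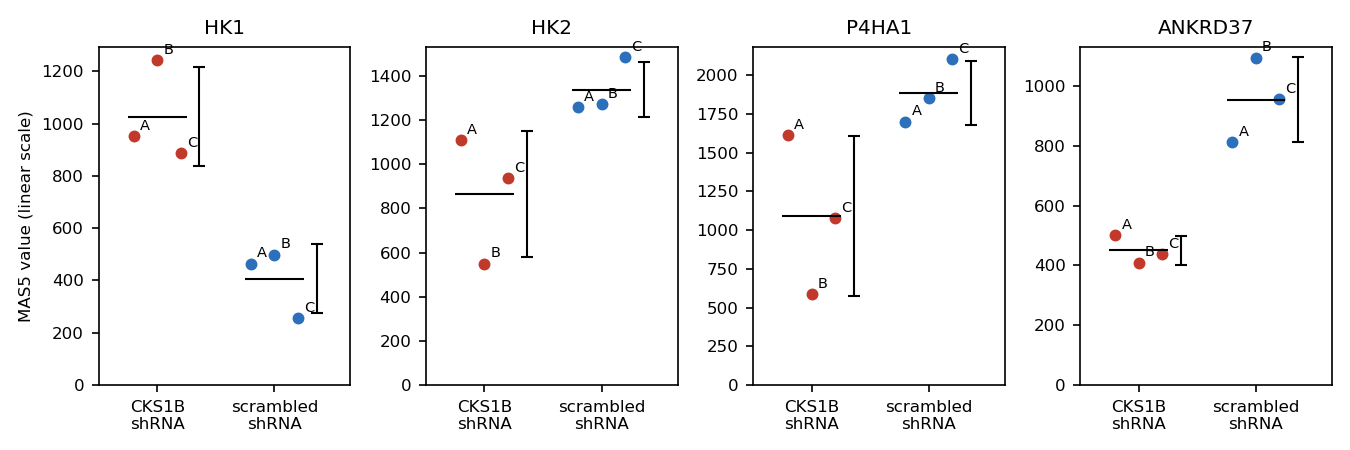
MAS5 values on a linear scale (vertical axis) of HK1, HK2, P4HA1 and ANKRD37 on the CKS1B shRNA arrays (left, red) and scrambled arrays (right, blue). Letters name the arrays, horizontal lines are means and bars are the SD over 3 arrays. In each panel the 3 red points lie on 1 side of the 3 blue points.

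These 4 genes were also the ones whose groups stayed apart in the same direction after quantile normalization, with 6 arrays and without array B, which held for 8.09% of all genes. Their promoter windows are shown as those of the genes whose groups stayed apart, a choice made from the values. Each is a RefSeq window of 300 bases around a start of the gene in GRCh38.p14, printed 5' to 3' on the strand of the gene. ACGTG or GCGTG on either strand (CACGT or CACGC when read on the other) is in capitals.
ANKRD37, chr4:185396591-185396890, plus strand: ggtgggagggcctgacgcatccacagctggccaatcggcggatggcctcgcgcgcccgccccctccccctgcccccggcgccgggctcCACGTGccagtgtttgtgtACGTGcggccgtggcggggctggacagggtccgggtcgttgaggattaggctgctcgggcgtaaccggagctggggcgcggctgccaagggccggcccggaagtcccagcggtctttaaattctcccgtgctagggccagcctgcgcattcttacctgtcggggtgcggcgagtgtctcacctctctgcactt
P4HA1, chr10:73096817-73097116, minus strand: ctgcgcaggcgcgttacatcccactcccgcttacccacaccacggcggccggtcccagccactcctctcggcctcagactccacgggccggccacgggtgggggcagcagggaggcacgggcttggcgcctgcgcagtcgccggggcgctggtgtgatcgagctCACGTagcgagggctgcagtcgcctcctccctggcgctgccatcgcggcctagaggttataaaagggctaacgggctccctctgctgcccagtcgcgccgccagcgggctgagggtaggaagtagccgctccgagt
HK2, chr2:74833877-74834176, plus strand: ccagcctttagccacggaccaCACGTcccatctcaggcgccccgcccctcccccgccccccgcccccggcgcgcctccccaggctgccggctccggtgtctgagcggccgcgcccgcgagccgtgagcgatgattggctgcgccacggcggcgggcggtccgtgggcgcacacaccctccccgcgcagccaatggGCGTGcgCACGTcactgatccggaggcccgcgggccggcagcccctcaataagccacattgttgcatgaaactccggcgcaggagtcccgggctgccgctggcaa
HK1, chr10:69269750-69270049, plus strand: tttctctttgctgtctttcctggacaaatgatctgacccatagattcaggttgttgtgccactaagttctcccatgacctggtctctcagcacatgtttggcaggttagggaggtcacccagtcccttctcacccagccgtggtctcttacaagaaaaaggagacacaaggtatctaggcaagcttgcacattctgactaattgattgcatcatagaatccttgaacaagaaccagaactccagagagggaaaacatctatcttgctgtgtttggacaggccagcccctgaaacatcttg
ANKRD37 holds 3 matches to ACGTG, counting both strands, of which 1 palindrome CACGTG gives 2 and is also the E-box bound by MYC with MAX. P4HA1 holds 1 match to ACGTG. HK2 holds 2 matches to ACGTG and 1 to GCGTG, and the HK1 window holds neither. Such a window was at hand for 28 genes, among them CA9, which has no expression value, and PFKFB4, ENO2 and BNIP3, which were below the filter. SLC2A3, BNIP3L, VEGFA and NDRG1 had none. Of the 28, 11 (39.3%) hold ACGTG, against 21.6% of all 27305 promoter windows, and 15 (53.6%) hold GCGTG, against 36.3%. Either was present in 21 of the 28 (75%), against 48.4% of all windows. The 28 were listed partly for a known response to low oxygen. The windows of all genes were not matched to them in expression or base composition. Whether matches go with the direction of a gene was not tested, and some signs depended on the setting. LDHA, with 5 matches to ACGTG, and PGK1 and ALDOC, with 3 each, had log2 differences of -0.35, -0.61 and -0.60 with 6 arrays. Without array B they had 0.36, 0.20 and 0.31, and after quantile normalization without it -0.19, -0.18 and 0.22. The tested genes with neither motif in their windows went both ways. PDK1 and EGLN3 had -0.35 and -0.004, then -0.64 and -0.70, then -0.61 and -0.49 in these settings. In the same order PFKM had -0.36, -0.27 and -0.37, PFKP -0.32, 0.21 and 0.0166, and PGAM1 -1.10, 0.37 and -0.05. TPI1 had 0.47, 0.39 and -0.10, and HK1 1.35, 1.20 and 1.37. Only 1 window a gene was searched, so a window with neither motif says nothing of other starts of that gene. A match describes these letters only and does not show binding.

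The enzymes from glucose 6-phosphate to pyruvate mostly read higher on arrays A and C of the CKS1B shRNA, and on array B most read far lower. Without array B, 10 of the 16 enzymes had both remaining CKS1B shRNA values above all scrambled ones, against 13.6% of all genes. They were HK1, GPI, ALDOA, TPI1, PGK1, PGAM1, ENO1, PKM, LDHA and LDHB. ALDOA, the aldolase that splits fructose bisphosphate, read 21068, 40917 and 32655 with the CKS1B shRNA (arrays A, B, C), against 16007, 16619 and 19302 on the scrambled arrays. The log2 difference was 0.82 (SE 0.60, adjusted p = 0.933), and 0.60 (SE 0.24, adjusted p = 0.504) without array B. TPI1, which interconverts the 2 triose phosphates, read 16259, 21462 and 20557.5 with the CKS1B shRNA, against 14782.5, 12436 and 14723 on the scrambled arrays. The groups were apart here too, with a log2 difference of 0.47 (SE 0.52, adjusted p = 0.933) and 0.39 (SE 0.22, adjusted p = 0.573) without array B.

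For most enzymes of the lower pathway array B decided the sign. PGAM1, phosphoglycerate mutase, read 15565, 743 and 16626 with the CKS1B shRNA (arrays A, B, C), against 12318, 12177.5 and 12964 on the scrambled arrays. Arrays A and C were above all scrambled arrays and array B was at 5.95% of their mean. Its log2 difference was -1.10 (SE 1.13, adjusted p = 0.933) with 6 arrays and 0.37 (SE 0.20, adjusted p = 0.566) without array B. PKM, pyruvate kinase, was chosen here after its values were seen, as the enzyme with the largest difference after HK1 when array B was left out. It read 19514.5, 403 and 31859 with the CKS1B shRNA, against 15061, 12754 and 13793 on the scrambled arrays. The log2 difference was -1.12 (SE 1.48) with 6 arrays and 0.85 (SE 0.25, 1.80-fold, adjusted p = 0.460) without array B. The dimmer PKM probe set above the filter had 0.22 with 6 arrays and 0.05 without array B, with overlapping groups. By their brightest probe sets, GPI, PGK1, ENO1 and LDHA had the same pattern as PGAM1 and PKM. Their log2 differences were -1.34 to -0.35 with 6 arrays and 0.20 to 0.60 without array B. The widest gap was in ENO1, the main enolase, whose value on array B, 531, was 2.60% of the scrambled mean of 20445 ± 1352 (SD, n = 3). LDHB, the lactate dehydrogenase subunit prevalent in oxidative tissues, read 21374.5, 29689.5 and 23459 with the CKS1B shRNA, against 17811, 18482 and 19955 on the scrambled arrays. All CKS1B shRNA arrays were higher, with a log2 difference of 0.39 (SE 0.56, adjusted p = 0.933), and 0.26 (SE 0.20, adjusted p = 0.679) without array B.

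Different probe sets of 1 enzyme went opposite ways on array B. The ALDOA probe set above read 236% of its scrambled mean there, while the next brightest read 5353.5, or 30.3%. For LDHB the brightest read 158% and the other 4.19%, and for TPI1 the brightest 2 read 154% and 21.7%. On arrays A and C of the CKS1B shRNA, the means of these 6 probe sets were 120% to 162% of the scrambled means. In these 3 genes the separation of the groups with 6 arrays thus holds for the brightest probe set and not for the next, while without array B it holds for both. For ALDOA the choice of probe set itself rested on array B. Over the other 5 arrays the next was the brightest, and its log2 difference with 6 arrays was -0.14. Over the 12 members with several probe sets above the filter, the probe sets shared 1 sign in 5 with 6 arrays (HK2, PFKL, PGK1, ENO1 and PDK1) and in 7 without array B (HK2, PFKP, ALDOA, TPI1, PKM, LDHB and PDK1). For PGK1 without array B the brightest probe set was at 115% of the scrambled mean, while the other 4 were at 75.4% to 94.6%. For PKM, counted in the 7, the brightest was at 185% and the other at 106%. For ENO1, the brightest 2 were at 158% and 125%, while the dimmest above the filter was at 53.4%, with both values below all scrambled ones (log2 difference -0.85).

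The enzymes' higher readings without array B also moved with the scaling of bright genes. Of the 16 enzymes, 10 belonged to the brightest decile of all genes on the scrambled arrays, and in that decile the median log2 difference of 1267 genes was 0.21 without array B. After quantile normalization of the 5 arrays it was -0.05. The count of enzymes higher on both CKS1B shRNA arrays then went to 2 of 16 (HK1 and PKM), against 12.7% of all genes. None of the 27 genes passed the adjusted threshold there either (0.0158% of all genes, 2 genes), and 5 of 27 (HK1, PKM, PDK1, NDRG1 and ANKRD37) had an unadjusted p under 0.05, against 8.77% of all genes. PKM kept a log2 difference of 0.28 (adjusted p = 0.561), and ENO1, ALDOA, TPI1, LDHA and LDHB had -0.07, 0.04, -0.10, -0.19 and -0.28. HK1, in the fourth decile, had 1.37 (adjusted p = 0.487). The enzymes' median difference was -0.47 with 6 arrays, 0.29 without array B and -0.09 after quantile normalization without array B, while the median of all genes was -0.08, -0.04 and -0.01.

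**Figure D3:**
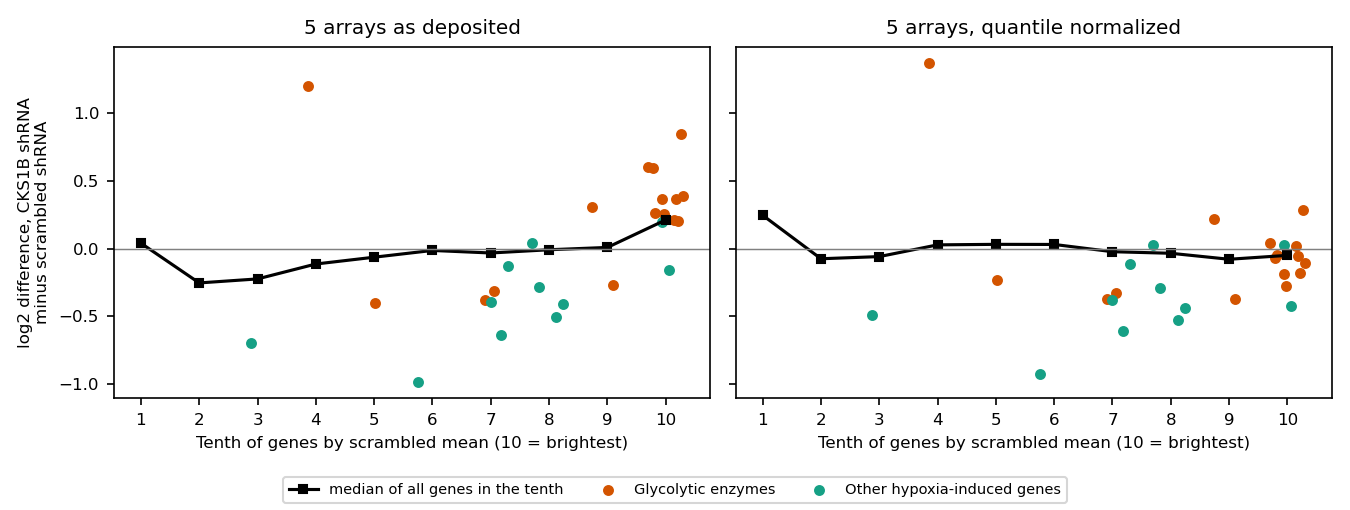
The log2 difference without CKS1B shRNA array B (vertical axis) against the decile of genes by mean value on the scrambled arrays, as deposited (left) and after quantile normalization (right). The black line, the median of all genes, is at 0.21 in the brightest decile on the left and -0.05 on the right, and the 10 enzymes in that decile move down with it, while the other hypoxia-induced genes stay mostly below 0 on both sides.

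In the phosphofructokinases and their regulators the groups overlapped. PFKFB3, which makes and removes the fructose 2,6-bisphosphate that activates phosphofructokinase, read 272, 385 and 764 with the CKS1B shRNA (arrays A, B, C), against 560, 762 and 533 on the scrambled arrays. The groups overlapped, and array C was the highest of all 6 (log2 difference -0.48, SE 0.43, adjusted p = 0.933, and -0.40 without array B). PFKL, PFKM and PFKP, the phosphofructokinase isoforms that commit sugar to glycolysis, had log2 differences of -0.46, -0.36 and -0.32 with 6 arrays and -0.32, -0.27 and 0.21 without array B, with overlapping groups. The aldolase isoform ALDOC overlapped too and had -0.60 with 6 arrays and 0.31 without array B. PFKFB4 and the neuronal enolase ENO2 were below the filter, with values of 31.7 to 340 and 140 to 197 on the CKS1B shRNA arrays, and 49.7 to 618 and 44.8 to 205 on the scrambled arrays.

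Genes of glucose uptake and of the hypoxia response outside glycolysis read lower in most settings, but not after quantile normalization of all 6 arrays. Of 11, the log2 difference was below 0 in 10 with 6 arrays (median -0.21), in 9 without array B (median -0.40), and in 9 after quantile normalization without array B (median -0.43). The share of all genes above 0 was 44.3%, 46.5% and 49.2% in these comparisons. After quantile normalization of all 6 arrays, 6 of 11 were below 0 and 5 above (45.5%, against 42.9% of all genes), with a median of -0.00384. The groups did not overlap with 6 arrays in 2 of the 11, as given above. Without array B, 5 of 11 had both remaining CKS1B shRNA values below all scrambled ones (14.4% of all genes), namely PDK1, EGLN3, P4HA1, ANKRD37 and KDM3A. After quantile normalization there were again 5 of 11 (14.2% of all genes), with NDRG1 in place of EGLN3.

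SLC2A1, the glucose transporter GLUT1, read 1176, 667 and 1271 with the CKS1B shRNA (arrays A, B, C), against 1231, 1503 and 2354 on the scrambled arrays. The groups overlapped in that scrambled array A was below CKS1B shRNA array C (log2 difference -0.70, SE 0.40, adjusted p = 0.933, -0.41 without array B, and -0.25 with 6 arrays and its probe sets averaged). The transporter SLC2A3 was below the filter, at 19.2 to 801 with the CKS1B shRNA, the highest being array B, and 24.9 to 110 with the scrambled shRNA. PDK1, the kinase that shuts pyruvate dehydrogenase and so keeps pyruvate from becoming acetyl-CoA, read 744, 1412 and 768 with the CKS1B shRNA, against 1323, 1069 and 1185 on the scrambled arrays. Arrays A and C were below every scrambled array and array B was the highest of all 6. Its log2 difference was -0.35 (SE 0.35, adjusted p = 0.933) with 6 arrays, -0.64 (SE 0.24, adjusted p = 0.495) without array B and -0.61 (adjusted p = 0.560) after quantile normalization without array B. All 3 PDK1 probe sets above the filter had lower means on arrays A and C, of 40.0% to 63.4% of the scrambled mean.

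HIF1A, the oxygen-regulated transcription factor subunit, had overlapping values. It read 5080, 4797 and 4904.5 with the CKS1B shRNA (arrays A, B, C), against 4953.5, 4546 and 3654 on the scrambled arrays. Scrambled array C was the lowest of all 6, with a log2 difference of 0.18 (SE 0.37, adjusted p = 0.948), and 0.20 (SE 0.22, adjusted p = 0.778) without array B. EGLN3, a prolyl hydroxylase that marks HIF1A for degradation and is itself a HIF target, read 184, 739 and 142 with the CKS1B shRNA, against 295, 239 and 287 on the scrambled arrays. Arrays A and C were below every scrambled array and array B was the highest of all 6. The log2 difference was -0.004 (SE 0.62) with 6 arrays and -0.70 (SE 0.41, adjusted p = 0.586) without array B. It was above 0 when CKS1B shRNA array A (0.26) or C (0.43), or scrambled array A (0.0508) or C (0.0301), was left out. KDM3A, a histone H3 lysine demethylase, had log2 differences of -0.21 (SE 0.32) with 6 arrays and -0.40 (SE 0.24, adjusted p = 0.593) without array B.

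The mitophagy receptors and secreted factors overlapped between groups. BNIP3L, an outer membrane receptor for mitophagy, read 1841.5, 2042 and 953 with the CKS1B shRNA (arrays A, B, C), against 1595, 1632 and 1635 on the scrambled arrays. The CKS1B shRNA arrays thus lay on both sides of the closely placed scrambled arrays (log2 difference -0.08, SE 0.38, adjusted p = 0.984, and -0.29 without array B). Its relative BNIP3 was below the filter, at 37.9 to 609 with the CKS1B shRNA and 56.5 to 150 with the scrambled shRNA. VEGFA, the growth factor of blood vessels, read 1313, 1222 and 1135 with the CKS1B shRNA, against 1664, 1533 and 938 on the scrambled arrays, with scrambled array C the lowest of all (log2 difference -0.13, SE 0.34, adjusted p = 0.963, and -0.13 without array B). ADM, the vasodilator peptide adrenomedullin, had a log2 difference of -0.08 (SE 0.34) with 6 arrays and 0.04 (SE 0.26) without array B. NDRG1, a stress-induced protein, had -1.44 (SE 0.998, adjusted p = 0.933) with 6 arrays and -0.16 (SE 0.22, adjusted p = 0.833) without array B. On array B it read 657, against a scrambled mean of 10754 ± 1135 (SD, n = 3).

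**Figure D4:**
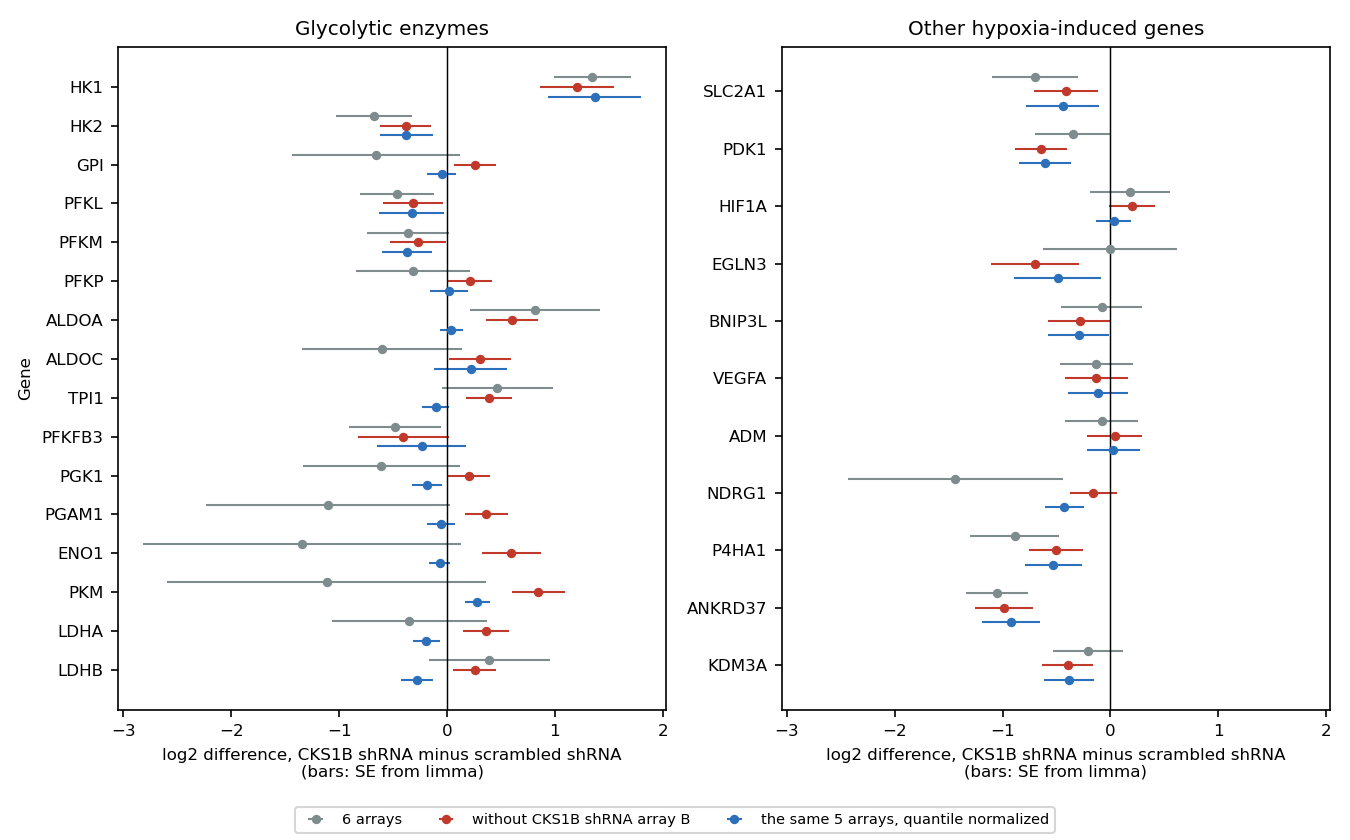
The log2 difference (horizontal axis, CKS1B shRNA minus scrambled shRNA) of each tested gene with its SE, with 6 arrays (grey), without CKS1B shRNA array B (red) and for the same 5 arrays after quantile normalization (blue). For most bright enzymes the 3 settings differ in sign, while HK1 is at 1.20 to 1.37 and ANKRD37 at -1.05 to -0.92 in all 3.

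Set side by side on each array as deposited, the medians of the enzymes and of the other hypoxia-induced genes had opposite signs on arrays A and C of the CKS1B shRNA. Relative to the median of all genes, the enzymes' median shift was 0.25, -1.33 and 0.38 log2 units with the CKS1B shRNA (arrays A, B, C), and -0.01, -0.10 and 0.08 with the scrambled shRNA. The median shift of the other genes was -0.18, -0.14 and -0.51 on the CKS1B shRNA arrays and -0.02, -0.04 and 0.0006 on the scrambled arrays, each of which was set against the other 2. Of the 16 enzymes, 13, 4 and 13 were above the median of all genes with the CKS1B shRNA (arrays A, B, C), against 7, 3 and 9 with the scrambled shRNA. Of the 11 other genes, 5, 5 and 1 were above it with the CKS1B shRNA, against 5, 5 and 6 with the scrambled shRNA. By these counts the other genes stood apart from the scrambled arrays on array C and not on array A. The median enzyme thus stood 0.43 above the median other gene on array A, 0.89 above it on array C and -1.18 from it on array B. By rank within an array, the median enzyme was at percentile 98.3, 79.9 and 97.6 on the CKS1B shRNA arrays and 98.1, 98.2 and 98.2 on the scrambled arrays. The median of the other genes was at percentile 66.6, 74.5 and 60.9 on the CKS1B shRNA arrays and 70.8, 69.4 and 73.1 on the scrambled arrays. The median rank of the other genes was thus lower on arrays A and C than on any scrambled array. Not every gene followed. On array A, BNIP3L ranked above its scrambled range, and HIF1A, EGLN3, VEGFA and ADM ranked within theirs. On array C, SLC2A1, HIF1A, VEGFA and ADM ranked within theirs. For the median enzyme, arrays A and C lie within 1 percentile of the scrambled arrays. The shifts are on the deposited scale. After quantile normalization without array B, the median log2 differences of both lists were below 0, at -0.09 (enzymes) and -0.43 (others). These medians describe chosen genes and were not tested.

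**Figure D5:**
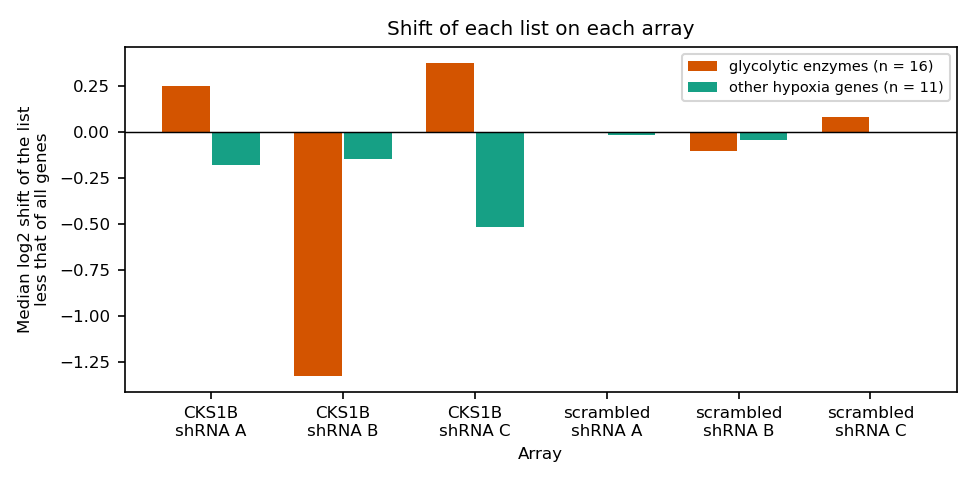
Median log2 shift of the 16 enzymes and the 11 other hypoxia-induced genes on each array (vertical axis), less that of all genes. Values are as deposited, without quantile normalization. On arrays A and C of the CKS1B shRNA the median of the enzymes is above 0 and that of the other genes below, on CKS1B shRNA array B that of the enzymes is at -1.33, and on the scrambled arrays both lie between -0.10 and 0.08.

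Ratios of isoforms within an array do not move with a linear scaling of it, and 5 pairs had both members above the filter. The log2 ratio of the HK1 to the HK2 probe set was -0.22, 1.15 and -0.08 with the CKS1B shRNA (arrays A, B, C), against -1.41, -1.32 and -2.47 on the scrambled arrays. The groups were apart and differed by 2.02 log2 units (4.05-fold, exact two-sided permutation p = 0.1, the smallest that 3 against 3 can give, adjusted p = 0.5 over the 5 pairs). Without array B they differed by 1.585, and with the probe sets of each gene averaged by 1.44 over 6 arrays. In the other 4 pairs the groups overlapped, with differences of 0.10 for PFKM over PFKL, 0.14 for PFKP over PFKL, -1.42 for ALDOC over ALDOA and 0.74 for LDHB over LDHA. The exact permutation p was 0.3 to 1 in these, and without array B ALDOC over ALDOA was at -0.30, PFKP over PFKL at 0.53 and LDHB over LDHA at -0.10. Since probe sets differ in their affinity, such a ratio is no ratio of molecules.

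Among other genes of these pathways limma called none at an adjusted p of 0.05, with 6 arrays or without array B. These lists were of other glycolytic and lactate transport genes (10 of 20 tested), entry of pyruvate into mitochondria (9 of 12), the pentose phosphate pathway (6 of 7), HIF subunits and oxygen sensors (8 of 11) and other HIF targets (21 of 25). With 6 arrays the difference was above 0 in 4 of 10, 0 of 9, 1 of 6, 3 of 8 and 12 of 21 genes, with medians of -0.11, -0.63, -0.54, -0.35 and 0.11. Without array B it was above 0 in 5, 2, 2, 5 and 10 genes, with medians of -0.04, -0.13, -0.15, 0.07 and -0.06. The genes of smallest p were PFKFB1, a liver and muscle relative of PFKFB3, MPC2, a subunit of the mitochondrial pyruvate carrier, RPIA of the pentose phosphate pathway, EGLN1, the main HIF prolyl hydroxylase, and DDIT4, an inhibitor of mTORC1. RPIA, ribose 5-phosphate isomerase, read 1192.5, 2355 and 1011 with the CKS1B shRNA (arrays A, B, C), against 3214, 2901 and 2311 on the scrambled arrays. CKS1B shRNA array B was above scrambled array C, so the groups overlapped (log2 difference -0.97, adjusted p = 0.933, and -1.33 without array B). DDIT4 read 1224, 1160 and 1099 with the CKS1B shRNA, against 1778, 1269 and 2347 on the scrambled arrays. Its groups did not overlap, as in 6.41% of all genes in this direction (log2 difference -0.58, adjusted p = 0.933). The log2 differences of PFKFB1, MPC2 and EGLN1 were 0.91, -1.33 and -1.003 with 6 arrays and 0.45, -0.19 and -0.20 without array B. GAPDH, the glycolytic enzyme outside the list of 18, was looked up after the other values were seen. It read 24300, 47630 and 57941 with the CKS1B shRNA, against 19463, 20382 and 24783 on the scrambled arrays, with overlapping groups. Its log2 difference was 0.92 (SE 0.67, adjusted p = 0.933 in limma), 0.81 without array B and 0.08 after quantile normalization without array B. The 3' control probe set of GAPDH went the other way on array B, at 5364, against 20481 to 26163 on the scrambled arrays.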

How the data were processed

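Total RNA of JJN3 cells was measured on 6 arrays, 3 a group, and the groups and letters were taken from the sample titles. The deposited values are linear intensities. The authors computed 1 for each probe set of an array in MAS5, according to the submitters' processing notes, which give neither its version nor its parameters. The 2% trimmed mean was 500.02 to 500.06 on every array. Such scaling equalises the mean of an array and not the width of its distribution. Of 54675 probe sets, 62 controls were left out, 41091 of the rest had 1 gene, 1801 several and 11721 none. Of the 41091, 41037 matched the RefSeq gene table of GRCh38.p14, used for current symbols.

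The scale was log2(value + 16). A probe set whose mean was under the median of all (7.34) was left out, and the brightest probe set a gene over the 6 arrays was kept, the same for every comparison unless stated. Groups were compared over all genes with limma 3.58.1 in R 4.3.3 (lmFit, eBayes with trend), with Benjamini-Hochberg adjustment over them (threshold 0.05). Isoform ratios were compared by exact permutation. The fit and the overlap rule were run on simulated data. They were required to pass only with equal spread on every array, which these arrays do not have. All 32 genes are named. Values on every array are given where a gene passed the threshold, the groups did not overlap with 6 arrays, or its p was the smallest of its role, with PKM, EGLN3 and GAPDH added after their values were seen. In other lists the gene of smallest p is named. The members, lists and alternatives were chosen with earlier results of these data known. Motifs were searched in RefSeq promoter windows. Python 3.11.15 with matplotlib 3.10.9 drew the figures.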

Additional observations from a re-analysis of the deposited data

How the results depend on the processing

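No gene of the 27 passed under any alternative that gave it a value (lowest adjusted p 0.288, with array weights). There were 18 alternatives, but ANKRD37 had no value with probe sets averaged and EGLN3 none under the filter at the 70th percentile. Of the 27, 12 kept the sign of their difference wherever they had a value: HK1 and ALDOA above 0, and HK2, PFKL, PFKM, PFKFB3, SLC2A1, PDK1, NDRG1, P4HA1, ANKRD37 and KDM3A below. The cause of the changes below was not tested beyond the setting named. Leaving out 1 array at a time, the count of genes called ranged from 0 to 5, CKS1B from -4.41 to -3.63 and the medians from -0.77 to 0.29 (enzymes) and -0.40 to -0.0852 (others). The same fits gave -1.13 to 0.26 for GPI, -0.68 to 0.21 for PFKP, -1.06 to 0.31 for ALDOC, -1.02 to 0.20 for PGK1, -1.86 to 0.37 for PGAM1, -2.53 to 0.60 for ENO1, -2.27 to 0.85 for PKM and -0.78 to 0.36 for LDHA, each above 0 without CKS1B shRNA array B. They gave -0.21 to 0.11 for ADM, -0.70 to 0.43 for EGLN3, -0.29 to 0.26 for BNIP3L and -0.38 to 0.0256 for VEGFA. The ratios ranged from -2.14 to -0.30 for ALDOC over ALDOA, -0.10 to 1.21 for LDHB over LDHA, -0.28 to 0.53 for PFKP over PFKL and -0.12 to 0.24 for PFKM over PFKL. With array weights 4 genes were called, CKS1B was at -3.80 (past the threshold), the enzymes' median at 0.26, and GPI 0.15, PFKP 0.12, ALDOC 0.44, PGK1 0.11, PGAM1 0.23, ENO1 0.34, PKM 0.58, LDHA 0.31 and ADM 0.0391 turned. Choosing the brightest probe set over the 5 arrays without CKS1B shRNA array B called 6 genes, with CKS1B at -3.63, medians of 0.31 and -0.40, and GPI 0.26, PFKP 0.21, ALDOC 0.31, PGK1 0.20, PGAM1 0.37, ENO1 0.60, PKM 0.85, LDHA 0.36 and ADM 0.0385. Without both arrays of letter B, 1 gene was called, CKS1B was at -3.59 and the enzymes' median at 0.26, with GPI 0.28, PFKP 0.18, ALDOC 0.13, PGK1 0.18, PGAM1 0.35, ENO1 0.55, PKM 0.79 and LDHA 0.31. Quantile normalization without CKS1B shRNA array B called 2 genes, with CKS1B at -3.68, the other genes' median at -0.43, and PFKP 0.0166, ALDOC 0.22, TPI1 -0.10, PKM 0.28, LDHB -0.28 and ADM 0.0251 turned. Quantile normalization of 6 arrays gave the other genes a median of -0.00384, and LDHB -0.12, EGLN3 0.0686, BNIP3L 0.16, VEGFA 0.0162 and ADM 0.0736. Centring on the median, which moved the median of all genes to -0.31, gave the other genes -0.44 and HIF1A -0.055. With the probe sets of each gene averaged, those below the filter included, ALDOA was at 0.15 and TPI1 at 0.0877, and LDHB turned to -0.37, BNIP3L 0.11, VEGFA 0.035, PFKM over PFKL -0.0901 and LDHB over LDHA -0.0168, and with a pseudocount of 64 EGLN3 was at 0.0342. With the letter as a replicate block 0 genes were called. The deviations of same-letter arrays from their group means had correlations of 0.402, -0.0809 and -0.0796 for A, B and C, against -0.374 to 0.263 between letters. The CKS1B shRNA mean includes the outlying array B, so these values cannot settle a pairing by letter. The titles carry consecutive numbers within a letter but do not state a pairing. The median value of CKS1B shRNA array B was 334, against 117.5 to 201.6 on the other arrays.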
